A study of Mus musculus with 4 samples.

Results

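The genes described here are 10 genes of fat tissue measured in skeletal muscle, namely Adipoq, Lep, Cfd, Retn, Plin1, Cidec, Fabp4, Ces1d, Arxes1 and Arxes2, out of 23282 gene rows in the series. They were chosen by name, after their levels in these libraries and the differences between the libraries were known, so their values are a description and not a test of the choice. Each symbol stood on 1 row. The study crossed high-intensity treadmill running (E) with a tumor (T) in male CDF1 mice, for which the labels give postnatal day 28 and 10 mice per group, and profiled the gastrocnemius, a calf muscle. The methods give about that age at purchase, so the muscle came from older mice whose exact age is not stated. The groups were normal control [E(-)T(-)], without running or tumor cells, normal exercise [E(+)T(-)], with running alone, cancer control [E(-)T(+)], with CT26 cells, a mouse colorectal cancer line, injected into the tail vein and no running, and cancer exercise [E(+)T(+)], with both. According to the results text of the study, 1 representative mouse of each group was sequenced. There was 1 library per group and therefore no replicate, so no difference below could be tested between mice and every interval covers counting error only. The libraries held 10647535 to 13226111 reads, and 3 reads of the total, the smallest share that could be told from 0, came to at most 2.82e-05%.

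White fat cells store triglyceride in a large lipid droplet and secrete hormones into the blood, and both properties depend on genes that muscle fibers express little or not at all. Fat cells lie between the bundles of muscle fibers and around the muscle, and RNA of a whole gastrocnemius can hold some of theirs. Genes of this kind are switched on together during fat cell differentiation by the nuclear receptor PPARγ and the C/EBP transcription factors. In bulk RNA from a tissue, fewer fat cells and less RNA per fat cell cannot be told apart.

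Promoter stretches are shown for the members that have one of 5 searched motifs, and for Arxes1 and Arxes2 because theirs are the same. RefSeq promoter entries on GRCm38.p6 matched 8 of the 10 genes with 9 windows, each running from 250 bases before a gene start to 50 after it. Fabp4 and Ces1d had no entry. Capitals mark a motif match on either strand, and positions count back from the start, with -1 the base just before it. The first stretch shows the last 120 bases before the Lep start, with the C/EBP motif TTGCNNAA at -55. The stretches of Plin1 and Cidec cover the first 120 bases of the 250, with the same motif at -187 and -198. A further match of Plin1, at -58, is not printed because other annotated transcripts of the gene begin upstream of it. The Cidec start is that of an alternative transcript, so its stretch lies within the gene. The Adipoq stretch holds 3 matches to CCAAT, at -34, -27 and -7. The Arxes stretch is the whole 250 bases and holds no match.
Lep, chr6:29060101-29060220, plus strand: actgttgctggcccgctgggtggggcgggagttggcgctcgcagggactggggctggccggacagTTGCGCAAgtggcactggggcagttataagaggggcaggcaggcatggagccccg
Plin1, chr7:79732907-79733026, minus strand: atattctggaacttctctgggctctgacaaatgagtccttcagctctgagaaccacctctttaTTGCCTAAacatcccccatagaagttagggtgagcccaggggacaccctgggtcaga
Cidec, chr6:113434895-113435014, minus strand: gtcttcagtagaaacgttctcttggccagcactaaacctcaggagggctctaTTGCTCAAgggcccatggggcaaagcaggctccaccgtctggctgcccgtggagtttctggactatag
Adipoq, chr16:23146416-23146535, plus strand: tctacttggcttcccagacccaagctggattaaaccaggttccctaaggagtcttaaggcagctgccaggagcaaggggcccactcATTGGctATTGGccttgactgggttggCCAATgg
Arxes1, chrX:136033117-136033366, plus strand, the same letters as Arxes2, chrX:135993570-135993819, plus strand: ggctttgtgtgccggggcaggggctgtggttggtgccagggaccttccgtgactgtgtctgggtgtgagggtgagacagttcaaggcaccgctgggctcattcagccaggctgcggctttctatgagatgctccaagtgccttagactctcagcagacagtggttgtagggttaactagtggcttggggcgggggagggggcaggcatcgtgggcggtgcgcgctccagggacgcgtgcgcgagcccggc

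The C/EBP motif was found in 3 of the 9 member windows, those of Lep and Plin1 and 1 of the 2 of Cidec, and in 10.8% of all 32851 promoter windows. The Cidec window at the outer start of the gene, chr6:113435711-113436010, held no match. CCAAT was found in the Adipoq window alone among the 9 and in 37.4% of all windows. TATAAA was found in no member window and in 13.6% of all windows. The same held for CACGTG, with 7.15% of all windows, and for the DR1 motif, the direct repeat with a spacer of 1 base that PPARγ binds, with 0.381%. The motifs do not overlap one another in these stretches. A match describes letters in a window and says nothing about the binding of a factor.

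Read by gene, the level of the fat tissue genes was highest in normal control for 8 of 10 and lowest in cancer control, ties included, for 9 of 10. The reads of the 10 genes together made up 0.326% of all reads in normal control (95% Clopper-Pearson interval 0.322 to 0.329), 0.202% of those from normal exercise, 0.11% of those from cancer control and 0.225% of those from cancer exercise. Their summed normalized read count was 39042 from normal control, 21652 from normal exercise, 12564 from cancer control and 26879 from cancer exercise, or 55.5%, 32.2% and 68.8% of normal control in the last 3. Fabp4 alone gave 56.6% to 72.1% of these reads. Without the 2 most abundant members, Fabp4 and Cfd, the summed level was 49.3%, 17.6% and 49.8% of normal control. Normal exercise and cancer exercise then lay side by side on this scale. As a share of reads their order was reversed without these 2 genes, with 0.0224% from normal exercise (0.0216 to 0.0232) and 0.0203% from cancer exercise (0.0195 to 0.0212).

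**Figure D1:**
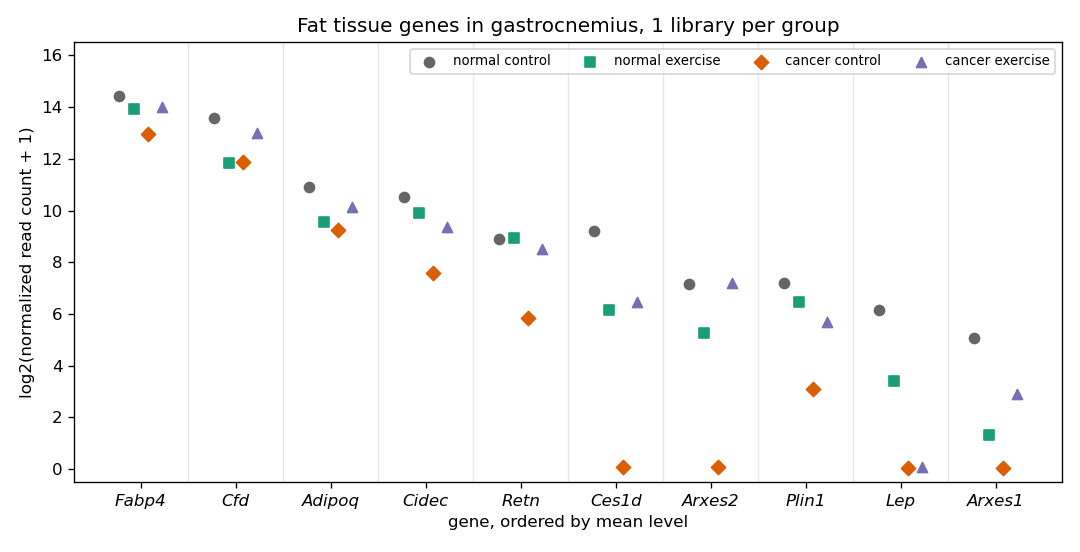
The level of each fat tissue gene in the 4 libraries, as log2 of the normalized read count plus 1 on the vertical axis, with genes ordered by mean level. Cancer control, drawn as diamonds, lies lowest for 9 of 10 genes, and for Ces1d, Arxes2, Lep and Arxes1 it had 0 reads.

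Where 4 values are given without names below, they follow the order normal control, normal exercise, cancer control, cancer exercise. The 4 secreted products were Adipoq, Cfd, Retn and Lep. Cfd encodes complement factor D, or adipsin, a protease of the alternative complement pathway made mainly by fat cells. It had 11362 reads from normal control, 4493 from normal exercise, 3492 from cancer control and 7506 from cancer exercise, a normalized read count of 12085, 3642, 3739 and 8129. It was the only member with its lowest level in normal exercise, and cancer control lay just above. Adipoq encodes adiponectin, a hormone that favors fatty acid oxidation in muscle. It had 1823, 929, 564 and 1036 reads in the same order, a normalized read count of 1939, 753, 604 and 1122. Cfd and Adipoq thus shared the order of normal control first and cancer exercise second. The read ratio of Cfd to Adipoq stayed between 4.84 in normal exercise and 7.25 in cancer exercise, and was 6.23 in normal control and 6.19 in cancer control.

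Retn encodes resistin, a hormone of mouse fat cells linked to insulin resistance. It had 444 reads from normal control, 597 from normal exercise, 53 from cancer control and 335 from cancer exercise, a normalized read count of 472, 484, 56.8 and 363. Cancer control stood farthest apart, at 12% of normal control. The counting interval of the log2 ratio between normal exercise and normal control, -0.14 to 0.22, included equal levels. That between cancer exercise and normal exercise, -0.61 to -0.22, did not. Its relative Retnlg, a resistin-like gene expressed in neutrophils, had 0, 3, 92 and 175 reads, nearly all of them in the libraries with a tumor. Retnla, a resistin-like gene of macrophages and fat tissue, had 3893, 3049, 199 and 286 reads and was low in both libraries with a tumor. Lep encodes leptin, the hormone that signals fat stores to the brain. It had 67 reads from normal control, 12 from normal exercise and 0 in both libraries with a tumor. It was the only member that stayed at 0 in cancer exercise.

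Plin1 and Cidec encode proteins of the lipid droplet surface. Plin1 encodes perilipin 1, which guards the droplet of the fat cell and opens it to lipases when phosphorylated. It had 138 reads from normal control, 108 from normal exercise, 7 from cancer control and 47 from cancer exercise, a normalized read count of 147, 87.6, 7.56 and 50.9. Cidec encodes a protein that fuses droplets into the single large one of the white fat cell. It had 1390, 1184, 176 and 600 reads, a normalized read count of 1479, 960, 188 and 650. Both kept the same order of libraries, with cancer control at 5.15% of normal control for Plin1 and 12.7% for Cidec.

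Fabp4 and Ces1d handle lipids inside the cell. Fabp4 encodes the fatty acid binding protein of fat cells, also made by capillary endothelium and macrophages. It was the most abundant member, with 20767 reads from normal control, 19252 from normal exercise, 7440 from cancer control and 15075 from cancer exercise, a normalized read count of 22087, 15607, 7967 and 16326. Its range across the libraries was the narrowest of the 10 genes in ratio, with cancer control at 36.1% of normal control. Ces1d encodes a carboxylesterase of the fat cell that cleaves triglyceride. It had 553, 87, 0 and 80 reads, a normalized read count of 588 from normal control, 70.4 from normal exercise and 86.7 from cancer exercise. Only normal control held a high level of Ces1d, and normal exercise and cancer exercise did not differ beyond counting error (95% interval of the log2 ratio -0.16 to 0.75). Of the other 6 genes of the Ces1 family in the files, Ces1f was the one with most reads, 29 from normal control, 5 from normal exercise, 0 from cancer control and 8 from cancer exercise. None of Ces1e, Ces1b and Ces1c had more than 8 reads in any library.

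Arxes1 and Arxes2 are a pair of retrotransposed genes expressed in fat tissue. They derive from Spcs3, a subunit of the signal peptidase, which had 140, 289, 299 and 310 reads. Each is a single exon on the X chromosome, and their starts lie 39547 bases apart. Their 300-base promoter windows were identical at 300 of 300 bases. The transcripts, 1580 and 1532 bases long, shared 565 of the 1506 stretches of 75 bases in Arxes1 and an identical run of 639 bases, but none of the shared stretches lay in the last 882 bases of Arxes1, and within the last 500 bases the longest identical run was 9. Reads of a 3′ end assay could therefore be assigned to one or the other. Arxes2 had 133 reads from normal control, 46 from normal exercise, 0 from cancer control and 134 from cancer exercise. Arxes1 had 31, 2, 0 and 6 reads. Arxes2 was as high in cancer exercise as in normal control, and Arxes1 was not. The read ratio of Arxes2 to Arxes1 was 4.29 in normal control (95% interval 2.88 to 6.56), 23 in normal exercise (6.02 to 196) and 22.3 in cancer exercise (10 to 61.9), so the ratio in cancer exercise lay above that in normal control by more than counting error.

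A gene was called higher or lower past 2-fold, taken from the deposited log2 values, provided its normalized read count reached 4 in either library. The log2 fold changes include a pseudocount of 1, which understates the change of low genes. Where a library had 0 reads, the fold is given as a lower bound against a floor of 3 reads in that library. This bound does not cover counting error, and the counting intervals of these members reached smaller folds. For all 4 comparisons the median log2 fold change over all genes lay between -0.02 and 0.01. All 10 members met the minimum in 3 comparisons, and Lep did not in the comparison of the libraries with a tumor. The comparisons share libraries: normal control enters the first and the second, and cancer control the second and the third.

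The first comparison asked what exercise did in mice without a tumor. Of the 10 members 6 were called lower with exercise and 0 higher, while 12.1% of all genes tested were called lower and 9.44% higher. The log2 fold change was -3.77 for Arxes1, -3.04 for Ces1d, -2.76 for Lep, -1.90 for Arxes2, -1.73 for Cfd and -1.36 for Adipoq. For Arxes1, with 31 and 2 reads, the interval of the log2 ratio ran from -7.45 to -2.37. Plin1, Cidec, Fabp4 and Retn were not called, at -0.74, -0.62, -0.50 and 0.04. The median of the members was -1.55. Of the 4 secreted members, Adipoq, Cfd and Lep were thus lower by 2.57-fold to 6.79-fold and Retn was level, while Plin1, Cidec and Fabp4 differed by 1.42-fold to 1.67-fold.

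The second comparison asked what the tumor did without exercise. All 10 members were called lower in cancer control than in normal control, beside 24.2% of all genes called lower and 20.9% called higher. The log2 fold change was -1.47 for Fabp4, -1.68 for Adipoq and -1.69 for Cfd, the members that differed least, and -2.97 for Cidec, -3.03 for Retn and -4.11 for Plin1. The 4 members without reads in cancer control were lower by at least 183-fold for Ces1d, at least 44-fold for Arxes2, at least 22.2-fold for Lep and at least 10.3-fold for Arxes1. In the same order, their counting intervals of the log2 ratio ended at -7.21, -5.14, -4.13 and -2.97, smaller changes than these bounds. The median of the members was -3.57, or -3.20 with those 4 at their bounds.

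The third comparison asked what exercise did in mice with a tumor. Of the members 8 were called higher with exercise and 0 lower, beside 15.6% of all genes called higher and 15.1% lower. Retn was higher by 2.65 on the log2 scale, Plin1 by 2.60, Cidec by 1.78, Cfd by 1.12 and Fabp4 by 1.03. Arxes2 was at least 45.2-fold higher, Ces1d at least 27-fold and Arxes1, with 6 reads against 0, at least 2.02-fold. The counting intervals of the log2 ratio began lower than these bounds, at 5.18 for Arxes2, 4.42 for Ces1d and 0.25 for Arxes1. Fabp4 lay just past 2-fold, at 2.05-fold, and Adipoq just short of it, at 1.86-fold. Under scaling by the total read count Fabp4 was at 0.97 on the log2 scale and no longer called. Lep had 0 reads in both libraries and is given no fold. The median of the members was 2.19, or 1.45 with the 3 genes from 0 reads at their bounds.

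The fourth comparison set the libraries of the exercised mice side by side. Cfd, Arxes1 and Arxes2 were called higher in cancer exercise than in normal exercise, at 1.16, 1.60 and 1.94 on the log2 scale, and Lep lower, at least 2.99-fold. Beside these 3 and 1 of 10 members, 13.9% of all genes were called higher and 16.3% lower. For Arxes1, with 2 and 6 reads, the interval of the log2 ratio, -0.48 to 5.34, included equal levels. That of Lep ended at -1.06, a smaller change than its bound. The other 6 members lay between -0.77 for Plin1 and 0.57 for Adipoq. The median of the members was 0.18, and -0.18 without Arxes1 and Arxes2. Fabp4 was at 0.06 here and at -0.09 under scaling by the total read count, so it had no settled direction.

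**Figure D2:**
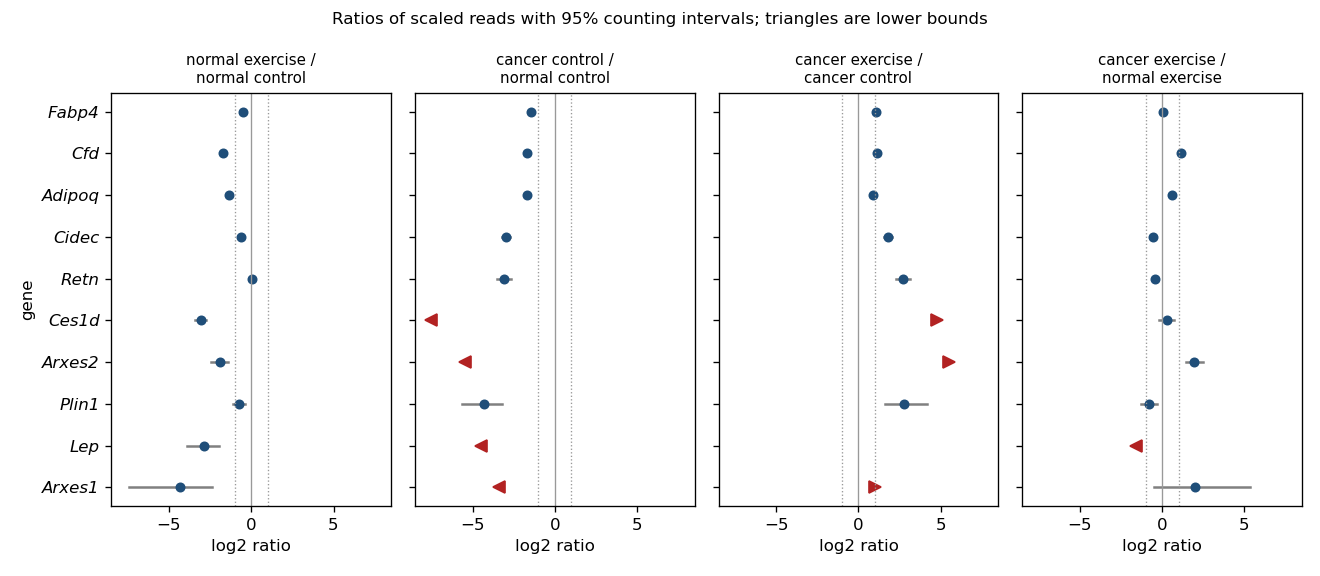
The log2 ratio of scaled reads for each fat tissue gene in the 4 comparisons, with bars for the 95% counting interval, triangles for lower bounds against a floor of 3 reads, and dotted lines at 2-fold. In the comparison of cancer control with normal control all 10 genes lie to the left of the lower dotted line, and in that of cancer exercise with normal exercise the points lie on both sides of 0.

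Outside the 10 genes, 64 other genes of fat cells were read from 5 lists covering adipogenic regulators, lipid droplets and lipolysis, fat synthesis, uptake of fat and glucose, and further fat cell genes. In normal exercise against normal control 7 of the 64 were called higher and 15 lower, in cancer control against normal control 11 and 35, in cancer exercise against cancer control 15 and 6, and in cancer exercise against normal exercise 15 and 21. In these comparisons the medians of the 64 genes were -0.08, -1.05, 0.38 and -0.52. Of all genes tested, 9.44%, 20.9%, 15.6% and 13.9% were called higher in these comparisons and 12.1%, 24.2%, 15.1% and 16.3% lower. The genes of this wider set were thus called both ways in every comparison, as all genes were. Beyond the members, the genes named by rule are among the most abundant of each list. Others, named for their direction, for having 0 reads or for what they encode, were chosen after their values were seen.

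Of the 19 further fat cell genes 14 were called lower in cancer control than in normal control and 2 higher, with a median of -1.94. In cancer exercise against cancer control 4 were called higher and 4 lower, with a median of 0.29. Their summed level was 47.4% of normal control in cancer control and 39.8% in cancer exercise. Car3, a carbonic anhydrase abundant in fat and muscle, had 3012 reads from normal control, 1733 from normal exercise, 561 from cancer control and 878 from cancer exercise. Adrb3, Hcar1 and Lgals12, singled out after their values were seen because they had 0 reads in cancer control, encode the β3 adrenergic receptor, the lactate receptor and a droplet-bound galectin of fat cells. Their reads in the order of the libraries were 37, 8, 0 and 3 for Adrb3, 71, 5, 0 and 0 for Hcar1, and 60, 9, 0 and 15 for Lgals12. Hcar1 stayed at 0 with the tumor and exercise, as Lep did. Sfrp5, a secreted inhibitor of Wnt signaling, was higher in cancer control, with 464, 762, 1235 and 433 reads. Rbp4, the retinol carrier of plasma, had 320, 229, 151 and 46 reads, and Hp, encoding haptoglobin, had 498, 337, 318 and 386.

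Among the 18 genes of fat synthesis 12 were called lower and 0 higher in cancer control against normal control, and 7 higher and 1 lower in cancer exercise against cancer control. Fasn, the fatty acid synthase, had 2724 reads from normal control, 7248 from normal exercise, 125 from cancer control and 1033 from cancer exercise. Gpd1, which makes the glycerol phosphate of triglyceride, had 3761, 5291, 184 and 892. These 2 genes were lowest in cancer control like the members, but their highest level was in normal exercise. Scd1, the main stearoyl-CoA desaturase, had 8364, 4866, 343 and 550 reads. Lpin1, a phosphatidate phosphatase also active in muscle, had 2533, 3105, 4721 and 4780 and was not called in cancer control against normal control, at 0.91 on the log2 scale. Without the tumor 5 genes of this list were called higher with exercise and 2 lower, whereas 0 and 6 of the members were. The 19 further fat cell genes went as the members did there, with 0 called higher and 9 lower.

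The 12 genes of lipid droplets and lipolysis were called in both directions. In cancer control against normal control 5 were called higher, Plin3, Plin4, Plin5, Cidea and Pnpla2, and 5 lower, Lipe, Mgll, G0s2, Bscl2 and Aqp7. Pnpla2, the lipase that begins triglyceride breakdown and is also expressed in muscle, had 2838 reads from normal control, 4123 from normal exercise, 12838 from cancer control and 9481 from cancer exercise. G0s2, its inhibitor, had 1372, 5478, 133 and 660, so that the lipase was highest and its inhibitor lowest in cancer control. Plin4 had 1929, 746, 4039 and 4840 reads, and the read ratio of Plin1 to Plin4 went from 0.0715 in normal control and 0.145 in normal exercise to 0.00173 in cancer control and 0.00971 in cancer exercise. Mgll, which cleaves the last fatty acid from the glycerol, had 2173, 2750, 685 and 1041 reads.

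**Figure D3:**
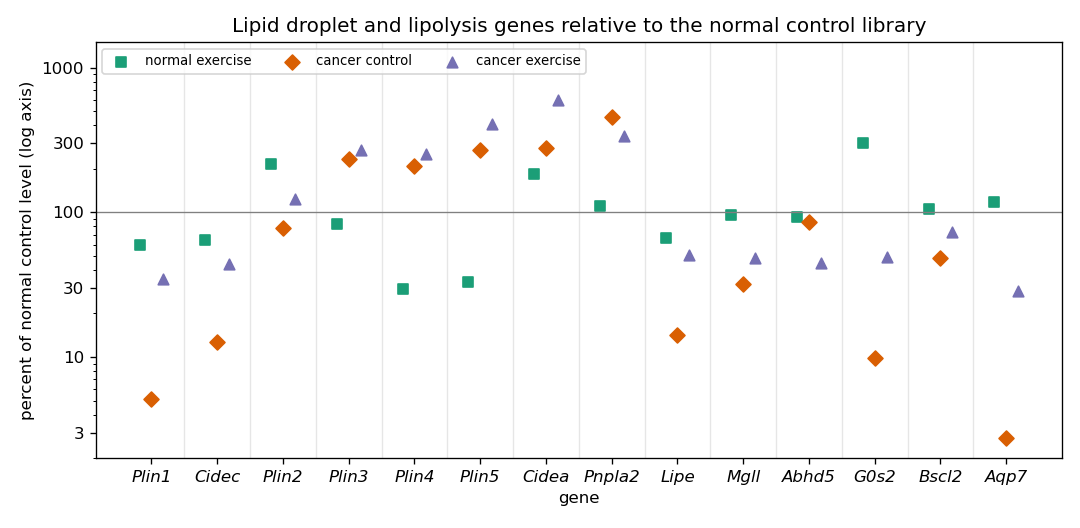
The level of Plin1, Cidec and the 12 genes of lipid droplets and lipolysis in 3 libraries, as a percent of normal control on a log axis, with the line at 100. Plin1 at 5.15% and Cidec at 12.7% lie low in cancer control together with Lipe, Mgll, G0s2, Bscl2 and Aqp7, while Plin3, Plin4, Plin5, Cidea and Pnpla2 lie above the line there.

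Of the 9 adipogenic regulators 3 were called higher and 3 lower in cancer control against normal control. Cebpd and Cebpb encode C/EBP factors that act early in fat cell differentiation and are also induced by inflammation. Cebpd had 591 reads from normal control, 593 from normal exercise, 7142 from cancer control and 3953 from cancer exercise. Klf15, a regulator of fuel use in muscle and fat that glucocorticoids induce, had 176, 52, 1244 and 541, and Cebpb had 464, 347, 1012 and 913. Rxra, the partner of PPARγ on DNA, had 819, 1558, 1361 and 812 reads and was not called in that comparison. Pparg and Cebpa, added here after their values were seen as the main regulators named above, had 100, 163, 64 and 107 reads and 295, 194, 98 and 120 reads. Cebpa was called lower in cancer control, at -1.57 on the log2 scale, and Pparg was not, at -0.62.

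Of the 6 genes of fat and glucose uptake 1 was called higher in cancer control than in normal control, Slc27a1 with 57, 108, 125 and 108 reads, and 1 lower, Fabp5 with 336, 655, 128 and 240. Lpl, which releases fatty acids from blood lipoproteins, had 11994 reads from normal control, 7791 from normal exercise, 22696 from cancer control and 16645 from cancer exercise. Gpihbp1, which anchors that lipase to capillaries, had 772, 1017, 1359 and 1281. Slc2a4, the insulin-responsive glucose transporter, had 3997, 5767, 5334 and 5828, and Cd36, a fatty acid transporter, had 1952, 1857, 1850 and 3118. These 4 genes were not called in that comparison. Of the 8 receptors and partners of the secreted members 1 was called in it, C5ar2, lower with 10 reads against 0 in cancer control. Adipor1 and Adipor2, the adiponectin receptors, had 1340, 2240, 2077 and 1675 reads and 1511, 1921, 1595 and 2326 reads. C3, whose cleavage in the alternative pathway starts with factor D, had 1550, 1530, 981 and 1114, and Cdh13, which binds adiponectin at the cell surface, had 524, 368, 322 and 428.

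Of the 10 genes of brown and beige fat 1 was called higher and 4 lower in cancer control against normal control. Ucp1, the uncoupling protein that defines brown fat, had at most 1 read in any library, which does not exceed the floor of 3 reads. The 2 most abundant genes of the list, Cox8b and Cox7a1, are also expressed in muscle. Cox8b had 13854, 14610, 10565 and 13306 reads and Cox7a1 had 9052, 7505, 2103 and 3997. Ppargc1a, a coactivator of mitochondrial genes, had 483, 482, 299 and 421, and Dio2, which activates thyroid hormone, had 252, 103, 307 and 52. Fabp3, the fatty acid binding protein of muscle, had 6598, 7219, 4614 and 6630 reads and was not called in any comparison, unlike Fabp4.

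Markers of other cells were read from 8 genes each for fibro-adipogenic progenitors, endothelium, macrophages, keratinocytes, tendon and skeletal muscle and from 6 genes of red cells. The muscle genes had reads for 8 of 8 in every library, with 326582, 334763, 125924 and 188462 reads of Acta1, the skeletal muscle actin, and their summed level was 77.1%, 55.8% and 62.4% of normal control in normal exercise, cancer control and cancer exercise. These genes did not move together in cancer control against normal control, where 1 was called higher and 3 lower. The largest fall was that of Pvalb, with 231409, 188444, 12643 and 22566 reads, and Myh1, called higher, had 7241, 5490, 17733 and 15617. Mylpf, a myosin light chain, had 226176, 202390, 55192 and 102830 reads, while Tnnt3, a fast troponin, had 135420, 185335, 162964 and 161807. Tendon markers were at 48.1%, 14.4% and 39.1%, lowest in cancer control as the members were. In cancer exercise against normal exercise 6 of 8 tendon markers were called lower and 0 higher. Of the 10 members 3 were called higher and 1 lower in that comparison. Their sum was 55.5% of normal control in normal exercise and 68.8% in cancer exercise, but 49.3% and 49.8% without Fabp4 and Cfd. Thbs4 had 5677, 4262, 1257 and 3429 reads, Fmod 2204, 1006, 44 and 193, and Chad, Kera and Comp had 0 in cancer control. Fibro-adipogenic markers summed to 66.1%, 58.4% and 59.7%, a sum made up mostly of Dcn, a matrix proteoglycan, with 54428, 46173, 33022 and 32091 reads. Gene by gene, 5 of the 8 were called lower in cancer control against normal control and 0 higher, with a median of -2.03. Lum, another proteoglycan, had 1605, 992, 95 and 336 reads, and Ly6a had 1966, 2103, 2067 and 2510.

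Keratinocyte markers were highest in cancer control, at 97.9%, 392% and 43.5% of normal control. All 8 had reads there against at most 3 in the other libraries, and Flg2, a gene of the outer skin layer, had 0, 0, 148 and 0 reads. Lor had 4, 0, 199 and 4, while Krt10 had 181, 236, 204 and 76. Endothelial markers were at 134%, 116% and 137%, macrophage markers at 96.3%, 164% and 158%, and red cell markers at 20.7%, 94.5% and 203%. Gene by gene, the first 2 of these lists were split in cancer control against normal control. Of the endothelial markers 3 lay higher and 5 lower there, with a median of -0.13, and 1 was called higher. Of the macrophage markers 4 lay higher and 4 lower, and 3 were called higher. The library with the lowest level of the fat tissue genes was thus also the one with the lowest tendon and the highest keratinocyte markers. The part of these cells in the results was not tested.

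**Figure D4:**
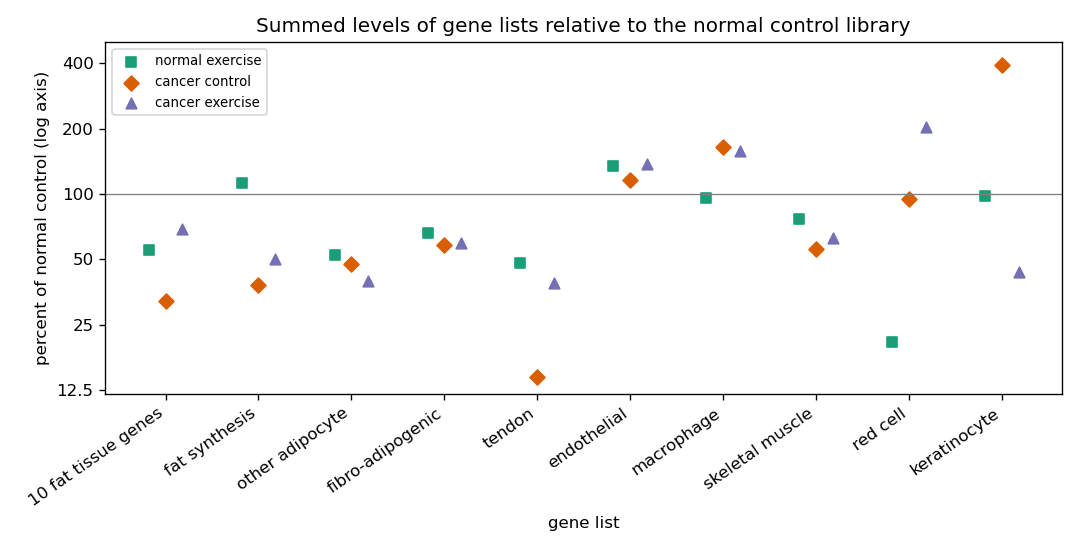
The summed level of the 10 fat tissue genes and of 9 other gene lists in 3 libraries, as a percent of normal control on a log axis, with the line at 100. Among the lists not drawn, those of adipogenic regulators, lipid droplets and lipolysis, and uptake of fat and glucose went the other way. Their sums in cancer control were 326%, 186% and 166% of normal control. The fat tissue genes lie at 55.5%, 32.2% and 68.8% and the tendon genes at 48.1%, 14.4% and 39.1% in normal exercise, cancer control and cancer exercise, while the keratinocyte genes reach 392% in cancer control.

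By likeness of profile, the genes nearest to the median of the 10 members over the 4 libraries were Tecpr2, 4930506C21Rik, B9d1, Rinl, Cachd1, Uba7, Aspa and Abca8b. Likeness was the root mean square distance of centered log2 values, which was 0.097 for Tecpr2 and 0.174 for Abca8b, over the 13197 genes whose normalized read count reached 16 in a library. Tecpr2 had 255 reads from normal control, 178 from normal exercise, 23 from cancer control and 116 from cancer exercise. Aspa had 146, 127, 12 and 62, and Abca8b had 169, 129, 18 and 86. The member nearest to that median was Plin1, at 0.285, and 37 other genes lay nearer. Ces1d, at 2.001, and Lep, at 1.793, lay farthest from it.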

How the data were processed

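RNA of the gastrocnemius was sequenced from the 3′ end (QuantSeq), 1 library for each of 4 groups taken from the sample titles. According to the methods and the submitters' processing notes, the authors aligned reads with Bowtie2 to mm10, obtained gene counts by Bedtools coverage, and then quantile-normalized these in edgeR. The handling of strand and of reads matching several genes is not given in the sources used here. What they deposited is on a log2 scale, the normalized count with 1 added, for 23282 gene rows.

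Whole reads were rebuilt by inverting this quantile adjustment, with 1 factor per library and 1 dispersion of 0.339. Values of 100% of the 16588 genes with reads were returned within 0.0006 on the log2 scale, and the method was tested on simulated data. Reads of Cfd and Fabp4 are uncertain by up to 5, those of Adipoq by 1 and those of the other members by 0. The adjustment leaves a gene without reads a small value above 0, so that detection was judged on reads. A gene with 0 reads was set to a floor of 3 for folds.

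The planned design named no test, and none was run. A gene was called past 2-fold where its normalized read count reached 4 in either library. Intervals (95%, Clopper-Pearson) describe how a gene's reads split between the libraries compared, scaled by the fitted factors, and no molecular identifiers are stated. The members and gene lists were chosen with earlier results of these data known. The rule for naming genes took all members, up to 4 genes of the highest mean in each list, and the 8 genes nearest in profile. Not every gene it took is named, and others were added after their values were seen. Loci came from RefSeq and GENCODE M21 on GRCm38. No exon of a member overlapped another gene, and none of the 426 stretches of 75 bases in the last 500 bases of a member occurred in another gene. Other scalings, pseudocounts, minimums and folds, and reads thinned to 10647535 per library were tried. Python 3.11.15, numpy 2.4.6, scipy 1.17.1 and pandas 2.3.3 were used.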

Additional observations from a re-analysis of the deposited data

Results flagged for a closer look

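Exercise was called in opposite directions without and with the tumor for 4 of the 10 fat tissue genes, all of them lower with exercise without the tumor and higher with it. Of the 13524 genes that met the minimum in both comparisons, 2.63% were called in this way and 4.99% in opposite directions either way. Of the members 9 met the minimum in both, all but Lep. The members were chosen with these values known. The log2 effect of exercise with the tumor minus that without it was 2.85 for Cfd, 9.43 for Ces1d, 6.62 for Arxes1 and 9.02 for Arxes2. With 1 library per group these differences were not tested. Cfd, complement factor D, gave 11362 reads from normal control and 4493 from normal exercise, but 3492 from cancer control and 7506 from cancer exercise, so that its effect was -1.73 without the tumor and 1.12 with it. The values of Ces1d, Arxes1 and Arxes2 rest on 0 reads in cancer control and depend on the pseudocount. Cancer control was also the library with keratinocyte markers at 392% and tendon markers at 14.4% of normal control, and the part of these cells in the differences was not tested.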

How the results depend on the processing

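The number of fat tissue genes called was 6 in normal exercise against normal control and 10 in cancer control against normal control under every scaling, pseudocount and minimum tried and with thinned reads. It was 7 to 8 in cancer exercise against cancer control and 2 to 4 in cancer exercise against normal exercise, where a minimum of 16 gave 2. At 4-fold or more it was 3, 7, 5 and 1 in the order of the comparisons. Of the 14518, 14818, 14491 and 14470 genes tested, 3121, 6682, 4437 and 4378 were called at 2-fold in the same order. The larger fold called 1437, 3178, 2058 and 1951 of them and 9, 22, 8 and 14 of the other adipocyte genes. A minimum of 16 called 1741 of all genes in the first comparison. Fewer genes can pass either setting by construction. Without Arxes1 and Arxes2 the median of the members was -1.05, -3.00, 1.45 and -0.18, against -1.55, -3.57, 2.19 and 0.18 with them, so the sign of the last rests on this pair. A pseudocount of 4 gave 1.57 in the third comparison. Scaling by total count shifted the libraries against each other by 0.16, 0.07, -0.07 and -0.16 on the log2 scale in the order of the comparisons, moved genes with 0 reads in a library by other amounts (Ces1d from -9.13 to -9.14 in the second) and reversed no called member. No paired analysis was possible because each group had 1 library, which also left no replicate to leave out. Depth limits Arxes1 and Lep, with at most 12 reads in 3 of the libraries, and Plin1, Ces1d and Arxes2, with at most 12 in 1.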
